A study of Mus musculus with 6 samples.

Results

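Aif1, Ms4a6d, Ly86, Cd68, Clec7a, Mrc1, Lilrb4a, Msr1, Marco and Csf1r are genes whose products mark macrophages or sit on their surface as lectin, scavenger or inhibitory receptors. They were chosen by gene symbol, with a value required on at least 4 of 6 arrays. Of the 10 genes listed, 9 were found, on 10 of the 11630 tested probes. Ms4a6d had 2 probes, and Csf1r, the receptor for the macrophage growth factor CSF1, was matched to no row and is not analysed here. Every one of the 10 probes had a value on all 6 arrays, so none lay near that minimum. The samples were whole lungs from 6 mice of the C57 background that had received ovalbumin (OVA) for sensitization and challenge, a protocol that produces allergic airway inflammation, with 1 mouse per two-colour array. In the other channel each array carried pooled lung RNA of C57 control animals, the same pool throughout, and both RNAs had been amplified. The labels give no age or sex, no number of pooled mice and no detail of the challenge. The values are the ratios of the 2 channels that the authors deposited, read here as log2. The base is not stated, and a natural logarithm would make each fold larger than printed. Neither the labels nor the file say which channel is on top of the ratio, so values keep the sign they were deposited with, sizes are folds between OVA lung and pool, and no sign is read as higher or lower in OVA lungs. Because the table holds ratios and no levels, it cannot show how strongly a marker was expressed, and in whole lung a change in the number of macrophages and a change in RNA per macrophage cannot be told apart.

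Macrophages of the lung include resident cells of the air spaces, resident cells of the tissue and cells that arise from blood monocytes during inflammation. They recognise particles and microbes through scavenger receptors, which bind modified lipoproteins and bacterial surfaces, and through C-type lectins, which bind sugars such as fungal glucan and mannose. Inhibitory receptors with tyrosine motifs in their tails recruit phosphatases and restrain this activation.

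The arrays measured between 10922 and 13132 probes, and the SD of the ratio over tested probes was between 0.32 and 0.49 in mice 1, 2, 4, 5 and 6 but 0.21 in mouse 3. Across probes measured on all arrays, which are not independent replicates, the array of mouse 3 correlated with the others at a Pearson r of 0.17 to 0.42, while the other arrays correlated with each other at 0.49 to 0.86. No pair of arrays was negatively correlated. Results are therefore given with and without mouse 3. Mouse 3 was not the only array set apart: weights estimated per array were lowest for mouse 1, at 0.56. They were 0.74 for mouse 3 and 1.06 to 1.53 for the others. Control sequences spotted 17 times on each array had a median SD within an array of 0.091 to 0.14, a measure of the technical spread of a spot. Members had an SD between mice of 0.24 to 1.41, and the median over all tested probes was 0.14.

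The members fell into 2 sets by size. Ms4a6d (on 1 of its probes), Aif1, Clec7a, Ly86 and Lilrb4a were 3.31- to 4.64-fold apart from the pool, all with a negative mean. Mrc1, Cd68, Msr1, the second Ms4a6d probe and Marco were 1.08- to 1.36-fold apart. The first set passed the test against 0 (limma, Benjamini-Hochberg adjusted over all 11630 probes, threshold 0.05) and the second did not. That is 5 of 10 member probes, where 24.4% of all tested probes passed, 12.3% with a negative mean. All 5 were at least 2-fold apart, and of all 11630 tested probes 1.50% both passed and were at least 2-fold apart. Without mouse 3 the number was again 5, with a background of 26.1%, or 13.2% negative and 2.13% at least 2-fold apart. Several members were picked with their large ratios already known, so these counts describe the list and are not independent evidence. The median of the member means was -0.98, and that of all tested probes was -0.0033. A negative value in all 6 mice was found for 2 of the 10 probes, with 14.3% among all probes with 6 values, and in mice 1, 2, 4, 5 and 6 together for 6 of 10, with 20.6%. In these 5 mice every probe of the first set lay below every probe of the second, and in mouse 3 the sets overlapped. The sets were split by their values on these same arrays, so the separation describes them and is no further evidence for 2 sets.

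**Figure D1:**
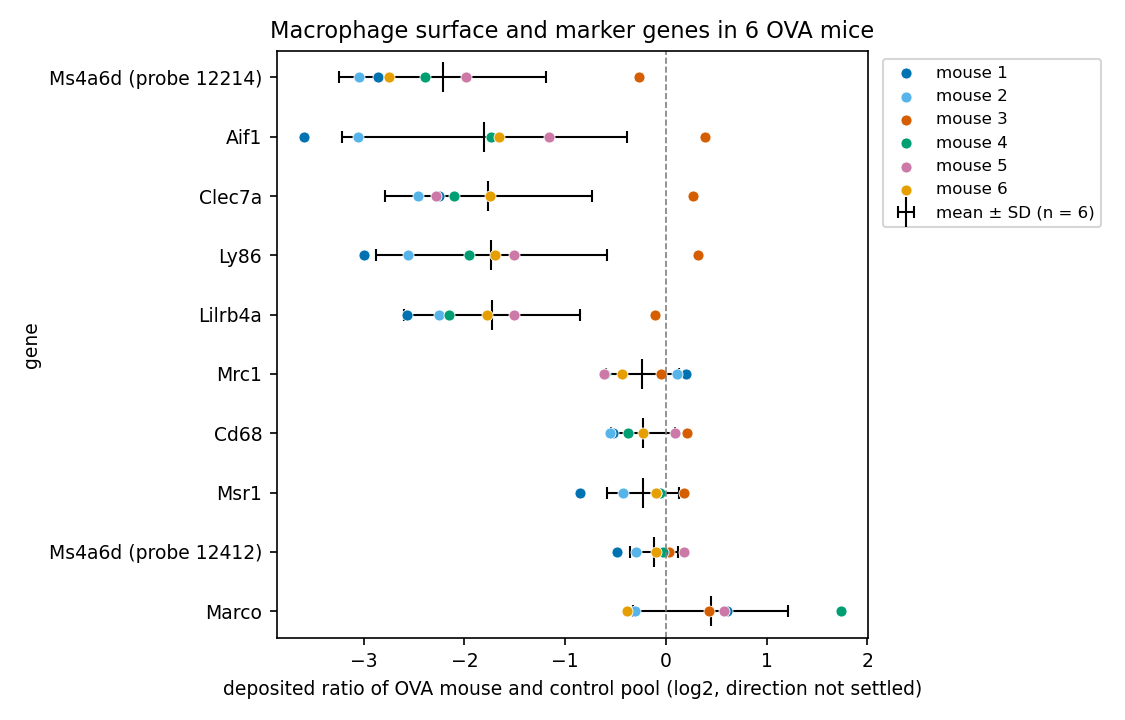
Deposited log2 ratio of each OVA mouse and the control pool (x axis) for the 10 member probes (y axis), with a point for each mouse and a bar for the mean ± SD over 6 mice. The 5 upper probes lie at -1.16 or below in every mouse except mouse 3, whose values lie between -0.26 and 0.38, and the 5 lower probes lie between -0.85 and 1.74.

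Among the macrophage markers, Ms4a6d, a membrane protein of the MS4A family that crosses the membrane several times, had the lowest mean. Its probe numbered 12214 was at -2.86, -3.05, -0.26, -2.40, -1.98 and -2.75 in mice 1 to 6. All mice were negative, and mouse 3 stood far from the rest. The mean was -2.22 ± 1.03 (SD, n = 6), 4.64-fold apart (limma, adjusted p = 0.00706), and it was the 14th lowest of the 11630 probes. Without mouse 3 it was -2.61 ± 0.42, 6.09-fold apart (adjusted p = 0.000473). The second probe, numbered 12412 and annotated with the same transcript accession, was at -0.49, -0.30, 0.029, -0.024, 0.18 and -0.096. Mice lay on both sides of 0, with a mean of -0.12 ± 0.24 (adjusted p = 0.349), or -0.043 without mouse 1. The second probe exceeded the first in every mouse, by 0.29 in mouse 3 and by 2.16 to 2.75 in the others, a mean difference of 2.10 ± 0.91. Among 8 accessions with 2 tested probes this was the widest gap between probe means, and the median gap was 0.11. Of 563 genes with at least 2 tested probes it was also the widest, with a median gap of 0.15. The probe sequences were not used here, so which transcript each probe detects was not tested. Averaged over both probes, Ms4a6d was at -1.17 (adjusted p = 0.00901).

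Aif1, the calcium-binding actin-bundling protein also called IBA1, was at -3.60, -3.05, 0.38, -1.74, -1.16 and -1.65 in mice 1 to 6. Mice 1 and 2 were the lowest and mouse 3 was the only positive one. The mean of -1.80 ± 1.41 (n = 6) was 3.49-fold apart (limma, adjusted p = 0.0319), with an SD above that of 99.9% of tested probes. Without mouse 3 it was -2.24 ± 1.03, 4.72-fold apart (adjusted p = 0.00678). The call of Aif1 depended on which mouse was left out: without mouse 1, 2, 4, 5 or 6 it did not pass, with means of -1.93 to -1.44 and adjusted p-values of 0.0572 to 0.0959. Of all 11630 tested probes, 2356, 1376, 1325, 2050 and 1708 passed without mouse 1, 2, 4, 5 and 6, and 2832 with 6 mice. The lowest of these, without mouse 4, was 11.4%.

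Ly86, also called MD-1, is the secreted partner of the Toll-like receptor relative Cd180. It was at -2.99, -2.56, 0.32, -1.96, -1.50 and -1.70 in mice 1 to 6, an order of mice that matched that of Aif1. The mean was -1.73 ± 1.15 (n = 6), 3.32-fold apart (limma, adjusted p = 0.0189). Without mouse 3 it was -2.14 ± 0.62, 4.41-fold apart (adjusted p = 0.00187). It no longer passed without mouse 2, 4 or 6, at adjusted p-values of 0.0637, 0.0605 and 0.0524.

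Cd68, or macrosialin, a heavily glycosylated protein of the lysosomal LAMP family and a common tissue marker of macrophages, was at -0.52, -0.55, 0.21, -0.37, 0.089 and -0.22. Mice 3 and 5 were positive and the others negative. The mean of -0.23 ± 0.32 (n = 6) was 1.17-fold apart and did not pass (limma, adjusted p = 0.171), and neither did -0.32 ± 0.26 without mouse 3 (adjusted p = 0.0566). Its values in single mice reached several times the technical spread of a spot, but the mean was smaller than the SD between mice. Aif1 and Cd68 are both used as macrophage markers, and Aif1 minus Cd68 was between -3.07 and -1.25 in mice 1, 2, 4, 5 and 6, and 0.17 in mouse 3.

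The lectin receptors differed from each other. Clec7a, or Dectin-1, binds fungal beta-glucan and signals through the kinase Syk. It was at -2.25, -2.46, 0.27, -2.10, -2.29 and -1.74 in mice 1 to 6, so that 5 mice lay close together and mouse 3 apart. The mean of -1.76 ± 1.02 (n = 6) was 3.39-fold apart (limma, adjusted p = 0.0128). Without mouse 3 the SD was 0.27, the smallest of the first set, and the mean of -2.17 was 4.49-fold apart (adjusted p = 0.00027). Mrc1, the mannose receptor CD206, which is abundant on alveolar and alternatively activated macrophages, was at 0.20, 0.11, -0.046, -0.61, -0.62 and -0.44. Mice 1 and 2, the lowest for Aif1 and Ly86, were the highest for Mrc1. Its mean of -0.23 ± 0.36 did not pass (limma, adjusted p = 0.212), nor did -0.27 ± 0.39 without mouse 3 (adjusted p = 0.207). The probe of Mrc1 lies 6 numbers from those of Gstm1 at a mean of 1.33 and Irf9 at -0.86, 18 from that of Mmp12 at -1.39 and 24 from that of Srrm1 at -0.26. Gstm1 was highest in mice 1 and 2, at 2.04 and 1.91. Mmp12, at -1.07 in mouse 1 and without a value in mouse 2, was at -2.35, -1.88 and -1.81 in mice 4, 5 and 6. Irf9 was at -0.76, -1.20, -0.033, -0.89, -1.02 and -1.26 in mice 1 to 6. Srrm1 was at 0.26, -0.26, -0.14, 0.047, -0.66 and -0.81. Over all tested probes, mean ratios of probes 6, 18 and 24 numbers apart had a Pearson r of 0.13, 0.10 and 0.11, against 0.0061 to 0.027 at distances of 5, 7, 17, 19, 23 and 25. Other members also had a probe farther from 0 at such a distance. For Cd68 it was 1810030O07Rik at -0.28, and for the second Ms4a6d probe they were Myt1l at 0.19, Krtcap2 at 0.20, Clcn2 at 0.25 and Rpl36al at -0.37. In the first set no probe at these distances was farther from 0 than the member itself. That set was split off by its large values, so this is no evidence about such probes. Large ratios were still among them: Pias4 at -1.11, 6 from Lilrb4a, Aoc3 at 1.23, 6 from Aif1, and Atf3 at -0.96, 24 from Ly86. A probe without a gene symbol, 6 from Clec7a, was at -0.74. Those near the first Ms4a6d probe lay between 0.0465 and 0.26. The part of such probes in the values of the members was not tested.

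Lilrb4a, an inhibitory receptor of the immunoglobulin family that recruits phosphatases, was at -2.57, -2.25, -0.11, -2.15, -1.51 and -1.78 in mice 1 to 6. All mice were negative, and mouse 3 was nearest to 0. The mean was -1.73 ± 0.88 (n = 6), 3.31-fold apart (limma, adjusted p = 0.00906), and -2.05 ± 0.41 without mouse 3, 4.15-fold apart (adjusted p = 0.000811). Lilr4b, its neighbour on the chromosome and a close relative in sequence, was at -1.17 ± 0.70 (adjusted p = 0.0141). Signal from both genes on a probe cannot be told apart in these data. Lilrb4a, Clec7a and the first Ms4a6d probe passed without any 1 mouse, with adjusted p-values of 0.000811 to 0.0349, 0.00027 to 0.0465 and 0.000473 to 0.0292.

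The scavenger receptors did not pass. Msr1, the class A receptor for modified lipoproteins, was at -0.85, -0.42, 0.18, -0.062, -0.10 and -0.10. Only mice 1 and 2 lay clearly away from 0, and the mean was -0.23 ± 0.36 (limma, adjusted p = 0.220, and 0.113 at a mean of -0.31 without mouse 3). Without mouse 1 the mean was -0.10. Marco, a collagen-like class A receptor typical of alveolar macrophages, was at 0.60, -0.31, 0.43, 1.74, 0.58 and -0.39. Mouse 4 was the highest, and mice 2 and 6 were negative. The mean of 0.44 ± 0.77 was the only positive one among the members. It did not pass (limma, adjusted p = 0.247, and 0.320 without mouse 3), and without mouse 4 it was 0.19. The SD of Marco was larger than that of 99.0% of tested probes. Its probe lies 6 numbers from that of Brca1, at -0.72, and 24 from that of Jpt1, at -0.48. The part of these probes in the value of Marco was not tested.

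In the order of means, neighbours within each set did not differ beyond their spread. Aif1 minus the first Ms4a6d probe was 0.41 ± 0.67, and the next 3 steps, to Clec7a, Ly86 and Lilrb4a, were 0.041 ± 0.85, 0.029 ± 0.49 and 0.0037 ± 0.32. The step from Lilrb4a to Mrc1 was 1.50 ± 0.98, with Mrc1 higher in 6 of 6 mice. It lies where the sets were split on these same values and is a description. Mrc1, Cd68 and Msr1 each had a mean of -0.23, with paired SDs of 0.57 and 0.23 between successive genes, and the second Ms4a6d probe minus Msr1 was 0.11 ± 0.19. Marco minus the second Ms4a6d probe was 0.56 ± 0.75, higher in 4 of 6 mice. By mouse, the median of the 10 probes was -1.55, -1.40, 0.20, -1.17, -0.89 and -1.04 in mice 1 to 6. In mouse 3, 7 of 10 probes were positive, against 0 to 3 in the other mice. Measured against the SD of its own array, mouse 3 was 1.79 SD above 0 for Aif1, 1.48 for Ly86, 1.26 for Clec7a and 2.02 for Marco. For the first Ms4a6d probe and Lilrb4a it lay on the negative side, at -1.22 and -0.51 SD.

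**Figure D2:**
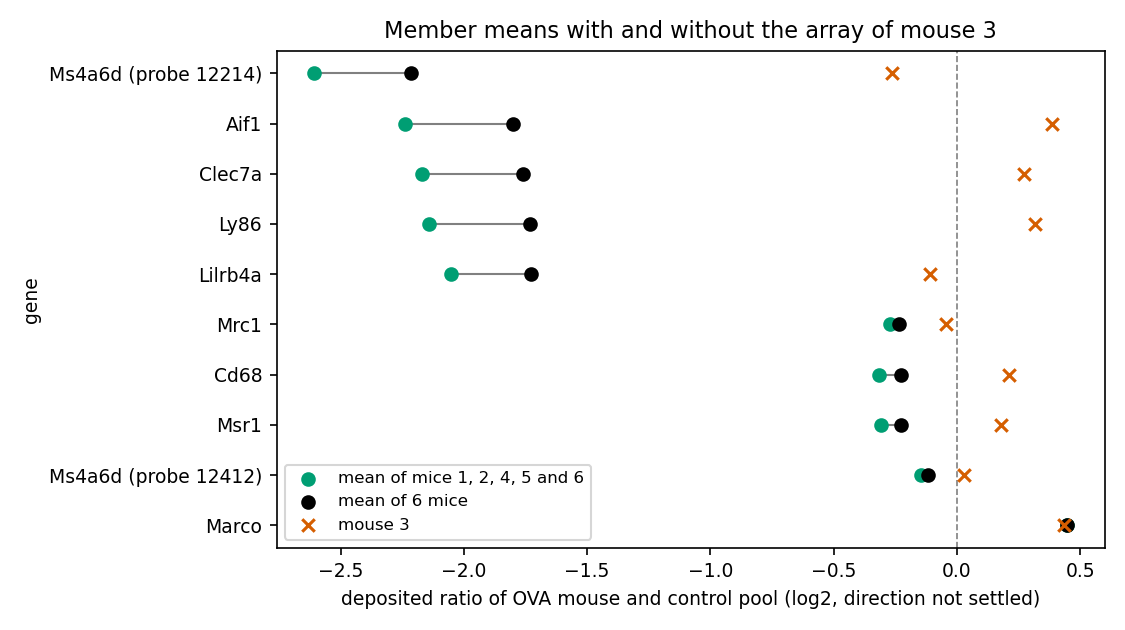
Mean deposited log2 ratio (x axis) of the 10 member probes (y axis) over 6 mice in black and over mice 1, 2, 4, 5 and 6 in green, with the value of mouse 3 as a cross. The 5 upper means lie between -2.22 and -1.73 with mouse 3 and between -2.61 and -2.05 without it, and Cd68 moves by -0.088, the most among the others.

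**Figure D3:**
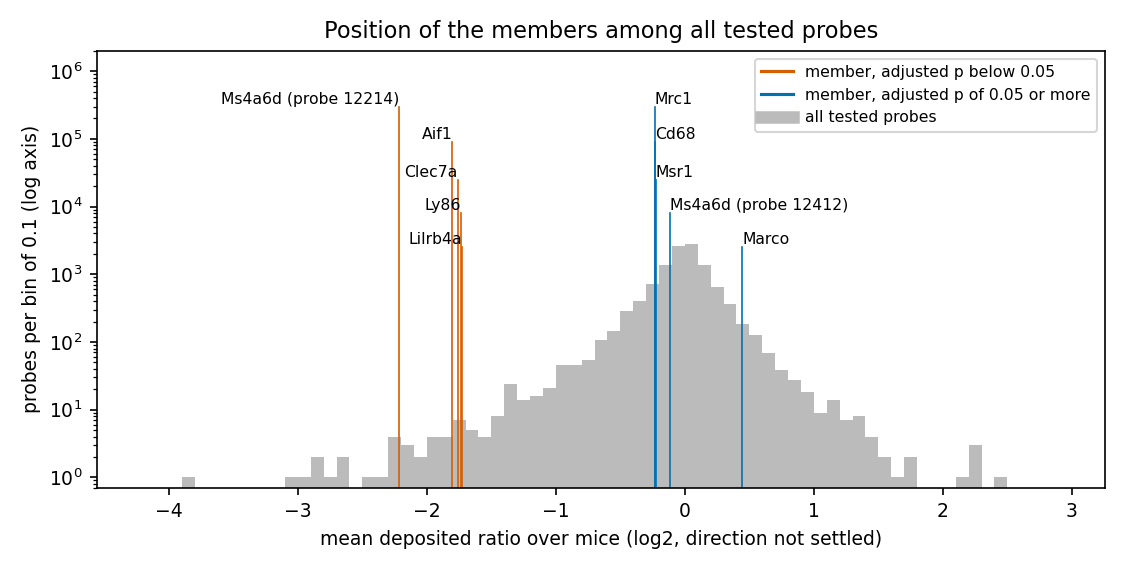
Number of probes on a log axis (y axis) by mean deposited log2 ratio over mice (x axis) for the 11630 tested probes in grey, with the members as lines, orange where they passed the test. The 5 orange lines stand among the 32 lowest means, and Mrc1, Cd68 and Msr1 lie between percentiles 14.1 and 14.5.

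The promoters of 6 members were held by the RefSeq-based table used here (build GRCm38.p6). Those of Aif1, Clec7a and Ly86, which stood far from the pool together, are shown beside that of Marco, the member with a positive mean. Each window has 300 bases around the start of the gene, read 5′ to 3′ on the strand of the gene: chr17:35176003-35176302 on the minus strand for Aif1, chr6:129472730-129473029 on the minus strand for Clec7a, chr13:37345095-37345394 on the plus strand for Ly86 and chr1:120504975-120505274 on the minus strand for Marco. Capitals mark GAGGAA or its complement on the other strand, the core of the site bound by PU.1, a transcription factor required for macrophages.
Aif1: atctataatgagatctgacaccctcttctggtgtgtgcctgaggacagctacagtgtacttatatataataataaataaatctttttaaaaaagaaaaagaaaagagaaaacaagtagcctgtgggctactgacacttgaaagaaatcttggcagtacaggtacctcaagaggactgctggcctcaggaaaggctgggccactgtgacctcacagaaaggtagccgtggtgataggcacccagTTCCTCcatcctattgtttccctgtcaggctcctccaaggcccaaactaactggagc
Clec7a: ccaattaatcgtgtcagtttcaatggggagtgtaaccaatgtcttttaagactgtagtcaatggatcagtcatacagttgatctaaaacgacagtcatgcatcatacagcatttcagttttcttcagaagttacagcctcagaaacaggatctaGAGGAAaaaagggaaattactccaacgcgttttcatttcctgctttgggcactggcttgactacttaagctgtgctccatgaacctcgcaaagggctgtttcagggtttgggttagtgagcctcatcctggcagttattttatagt
Ly86: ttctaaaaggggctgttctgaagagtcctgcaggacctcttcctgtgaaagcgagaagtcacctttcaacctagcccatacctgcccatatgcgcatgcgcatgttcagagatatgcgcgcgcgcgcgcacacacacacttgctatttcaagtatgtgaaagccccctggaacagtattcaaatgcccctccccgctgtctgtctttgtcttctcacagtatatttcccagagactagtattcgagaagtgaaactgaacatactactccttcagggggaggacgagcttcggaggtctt
Marco: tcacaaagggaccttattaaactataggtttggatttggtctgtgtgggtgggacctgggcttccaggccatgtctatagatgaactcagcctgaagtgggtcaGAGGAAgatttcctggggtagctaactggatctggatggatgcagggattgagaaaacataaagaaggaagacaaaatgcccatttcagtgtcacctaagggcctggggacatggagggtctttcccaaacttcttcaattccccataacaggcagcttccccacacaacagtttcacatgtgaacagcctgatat
On both strands 3 motifs were searched: GAGGAA, GAGGAAGT, which contains it, and TATAAA, a form of the TATA box. GAGGAA occurred in 1 place for Aif1, Clec7a and Marco, in 2 for Cd68 and 3 for Mrc1, and in no place for Ly86, so that 5 of 6 windows held it, as did 28.3% of 27025 promoters of the same length. The longer form GAGGAAGT was in 0 of the 6 and in 3.28% of all, and TATAAA was in 1 of the 6, Clec7a, and in 14.2% of all. In Clec7a it was read on the other strand, in the last bases of the window and after the start of the gene. That is not the place of a TATA box, and the window of a second Clec7a start had 0 matches. GAGGAA was found in windows of both sets of members. A match describes the sequence and is no evidence of binding.

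Genes related to the members by pathway were counted in the same fit with 1 probe per gene, against the 24.4% of all probes that passed. The lists were chosen with earlier results of these data known and carry no test of their own. Other paired and inhibitory receptors of myeloid cells had 9 negative calls and 1 positive call among 17 tested genes (58.8%, median -0.29), and the same numbers without mouse 3. Lair1, a collagen receptor, was at -1.29, Lilr4b at -1.17, Cd300ld at -0.90 and Pirb at -0.75. The adaptor Tyrobp, which carries activating signals, was at -0.20 and did not pass (limma, adjusted p = 0.300). Genes of CSF1 receptor signalling and myeloid transcription had 5 negative calls and 1 positive call among 14 (42.9%, median -0.21), and 7 and 1 without mouse 3. The kinase Fgr was at -0.93, the cytokine receptor subunit Csf2rb2 at -0.89, the transcription factor Cebpa at -0.48 and the phosphatase Inpp5d at -0.21. The positive gene was Il34, the other ligand of the CSF1 receptor, at 0.20. PU.1 itself, the product of Spi1, was at -0.086 and did not pass (adjusted p = 0.629).

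Other C-type lectins and the Syk pathway had 6 calls among 15 genes, all negative (40.0%, median -0.14), and 8 without mouse 3. The lectin Clec4n, or Dectin-2, was at -1.33, Clec4a2 at -0.98 and Clec10a at -0.71, and the kinase Prkcd, which acts below Syk, at -0.82. Syk was at -0.14 in 4 mice and did not pass. Clec4d and Clec4e, lectins of the same cluster as Clec4n, were at 0.050 and 0.10 and did not pass either. Of the other Ms4a genes 2 of 9 passed, both negative (22.2%, median -0.26): Ms4a6b at -1.79 ± 0.98 and Ms4a7 at -1.25 ± 0.68. Ms4a6c, measured in 4 mice, was at -0.26 and did not pass. Other scavenger receptors had 1 negative call among 10 (10.0%, median 0.010), and without mouse 3 they had 2 negative and 1 positive. The call was Olr1, the receptor for oxidized lipoprotein, at -1.01. Toll-like receptors and partners of Ly86 had 2 negative calls among 12 (16.7%, median -0.062), also without mouse 3. They were Tlr7 at -0.63 and Cd180, the partner of Ly86, at -0.51, while Ly86 was at -1.73.

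Lysosomal membrane proteins had 1 call on each side among 8 genes (25.0%, median -0.0085), Laptm4a at -0.75 and Tmem192 at 0.13, and without mouse 3 only the negative one. Lamp1 and Lamp2, relatives of Cd68, were at 0.20 and -0.18 and did not pass. Actin regulators had 3 calls among 9, all negative (33.3%, median -0.27). Arpc1b, a subunit of the actin-branching complex, was at -0.70, the bundling proteins Lcp1 at -0.50 and Fscn1 at -0.18. Without mouse 3 Fscn1 did not pass (adjusted p = 0.0680), and Arpc5, Capg and Rac2 did. Other markers of macrophages and monocytes had 4 calls among 15, all negative (26.7%, median -0.16), and 5 without mouse 3. The high-affinity Fc receptor Fcgr1 was at -1.87, the pore-forming Mpeg1 at -1.34, the protease Ctss at -0.73 and the integrin Itgb2 at -0.72. Cd163, Trem2, Gpnmb, Mertk and Pparg were between -0.096 and 0.23 and did not pass. Adgre1, Itgam, Cd14 and Siglec1 had values on fewer than 4 arrays.

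**Figure D4:**
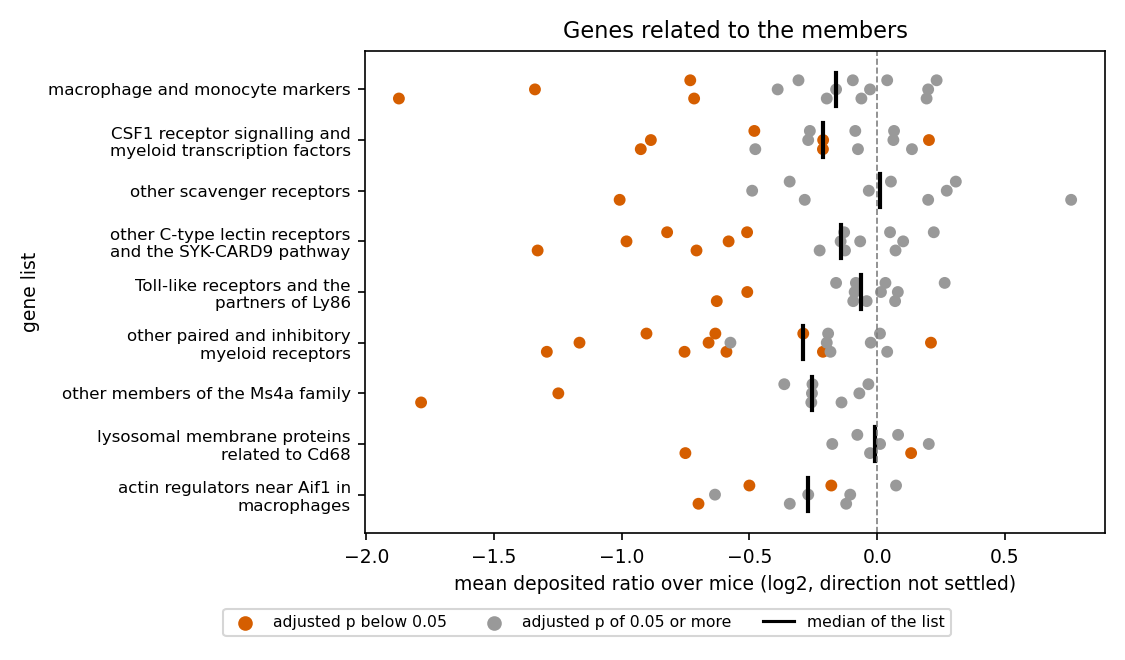
Mean deposited log2 ratio over mice (x axis) of the tested genes in 9 lists related to the members (y axis), orange where a gene passed the test and grey where it did not, with the median of each list as a black line. Medians lie between -0.29 and 0.010, and each list holds both orange and grey points.

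Markers of other cells of the lung were read in the same fit, against the same 24.4% of all probes. Neutrophil markers had 2 negative calls among 10 genes (20.0%, median -0.16), Mmp8 at -0.41 and Mpo at -0.15. Without mouse 3 the calls were Mmp8, Cxcr2 and Csf3r, and Mpo did not pass (adjusted p = 0.0536). Dendritic cell markers had 3 negative calls among 7 (42.9%, median -0.18), Batf3 at -0.25, Cd83 at -0.22 and Fscn1. Without mouse 3 they also had 3, with Itgax at -0.49 in place of Fscn1. Eosinophil markers had 1 negative call among 3, Alox15 at -0.59. T cell markers had 1 positive call among 7, Cd247 at 0.43, and 1 on each side without mouse 3. In B cell and mast cell markers 0 of 7 and 0 of 5 genes passed in limma, with 2 and 1 at an unadjusted p under 0.05. Epithelial markers had 4 negative and 3 positive calls among 11 (63.6%, median 0.19), and 2 and 7 without mouse 3, where Cdh1 and Sftpd no longer passed. The club cell genes Scgb1a1 and Cyp2f2 were at 1.38 and 1.33, and the surfactant proteins Sftpa1 and Sftpc at -0.61 and 0.60. Endothelial markers had 3 positive calls among 7 (42.9%, median 0.24), Ramp2 at 1.09, Tek at 0.93 and Tie1 at 0.36, and 5 without mouse 3. Their part in the ratios of the members was not tested.

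The probes most like the median of the members over the 6 mice, by root mean square difference among genes measured on all arrays, were Bub1b (0.11) and Aurkb (0.14) of the mitotic spindle, the interferon-induced Ifitm3 (0.12) and Ifi203 (0.17), Pcdhgb4 (0.15), the stress factor Atf3 (0.16), the replication factor Cdc45 (0.17) and the lysosomal protease Ctsz (0.17). Bub1b was at -1.65, -1.37, 0.072, -1.20, -0.68 and -0.97 in mice 1 to 6. The probe of Atf3 lies 24 numbers from that of Ly86, and the part of this in its likeness was not tested. The member median falls between the 2 sets of members, so these 8 probes have means of -1.06 to -0.85.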

How the data were processed

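The authors deposited 1 log ratio per probe and array, read here as log2 from the range of the values. The sources used here do not state how spots were scanned, corrected, normalized and filtered. Of 17280 probes, 14722 had 1 gene symbol in the platform annotation, 1 had several and 2557 had none. Symbols were updated through a gene table of assembly GRCm38.p6 (14445 matched, 277 kept their name). Each array was centred on its median, 170 repeated control rows were left out, and 11630 probes with values on 4 or more of the 6 arrays were fitted in R 4.3.3 with limma 3.58.1 as a test of the mean against 0 (intercept alone, eBayes, two-sided, Benjamini-Hochberg, threshold 0.05). The pool counts as 1 control sample, so variation among control mice does not enter the test, and no dye swap is known. The number of arrays limits the precision. The fit was tested on simulated data. These had independent noise for each probe and the same spread on every array. They therefore do not stand for the narrower array of mouse 3 or the correlations between arrays. The members and lists were chosen with earlier results of these data known. Named are all members, up to 4 genes per list past the threshold with the largest mean, or the 2 largest if none did, and the 8 probes most like the member median. Gstm1, Irf9, Mmp12, Srrm1, Brca1, Jpt1, 1810030O07Rik, Myt1l, Krtcap2, Clcn2, Rpl36al, Pias4, Aoc3, Itgax, Cxcr2, Csf3r, Arpc5, Capg, Rac2, Cdh1, Sftpd, Tyrobp, Il34, Spi1, Syk, Clec4d, Clec4e, Ms4a6c, Lamp1, Lamp2, Cd163, Trem2, Gpnmb, Mertk, Pparg and the chromosome neighbours were named after their values were seen, and the largest values of the B cell and mast cell lists are in the closing section. Alternatives were no centring, quantile normalization, scaling, minimums of 3 or 6 arrays, weights per array, robust or no moderation, genes in place of probes, an adjusted p of 0.01 and leaving out each mouse. Giving results without mouse 3 beside the main ones was chosen after seeing the data. Figures used matplotlib 3.10.9 in Python 3.11.15.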

Additional observations from a re-analysis of the deposited data

Results flagged for a closer look

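Each of the 10 member probes was searched for a mouse far from the others by Dixon's ratio of gap to range, which by chance marks about 1 in 20 groups. For Clec7a, mouse 3 at 0.271 stood apart from the other 5 mice, which lay between -2.46 and -1.74. Mouse 3 was also the highest mouse for the first Ms4a6d probe, Aif1, Ly86, Lilrb4a, Cd68 and Msr1, without passing the critical value.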

How the results depend on the processing

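Of all 11630 tested probes 2832 (24.4%) passed with 6 mice. Without moderation of variances 1444 of the 11630 passed, and at an adjusted p of 0.01 755 did. Leaving out 1 mouse gave 1325 to 3036 (11.4% to 26.1%). Of the 10 member probes 5 passed with 6 mice and 3 to 5 when 1 mouse was left out. Without moderation 2 of the 10 passed, and 2 at an adjusted p of 0.01. Without moderation Aif1, Ly86 and Clec7a did not pass, at adjusted p-values of 0.0973, 0.0708 and 0.0555. The count of members was 5 in the other alternatives run. The median of the member means was -1.18 to -0.88 when 1 mouse was left out, and -1.17 with the probes of a gene averaged. No member mean changed its sign in any alternative, and no member outside the first set passed in any. No paired analysis was possible because each array compares 1 OVA mouse with the same pool. Whether a dye effect or the single pool contributes to a ratio was not tested.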

Other observations

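Some members lie beside relatives on their chromosome, and the nearest 3 protein-coding genes on each side were read in the same fit. Beside Clec7a, Olr1 was at -1.01 (limma, adjusted p = 0.00706), and Clec1b, the third gene on the other side, was at 0.072 (adjusted p = 0.378). Beside Ms4a6d, Ms4a6b was at -1.79 (adjusted p = 0.0108), while Ms4a4d at -0.14 (adjusted p = 0.0859) and Ms4a3 at -0.035 (adjusted p = 0.538) did not pass. Near Aif1, the cytokine Tnf was at -1.19 (adjusted p = 0.0126), and Lst1, Ltb and Prrc2a were at -0.24, -0.25 and 0.15 and did not pass. Beside Ly86, the clotting factor subunit F13a1 was at 0.70 (adjusted p = 0.00836), on the other side of 0 from Ly86, and Ssr1 at -0.62 (adjusted p = 0.0207), on the same side. Beside Lilrb4a, Fam162b was at 0.60 (adjusted p = 0.00827) and Sim1 at -0.41 (adjusted p = 0.00397). Near Cd68, Sox15 was at 0.32 (adjusted p = 0.00836) and Senp3 at -0.29 (adjusted p = 0.0143). Near Msr1, Tusc3 was at -0.20 (adjusted p = 0.0428) and Zdhhc2 at -0.22 (adjusted p = 0.0234). No tested neighbour of Mrc1 or Marco passed. Of all tested probes 24.4% passed in this fit. Few neighbours were tested for each gene, so neither calls nor their absence are read as a result about the members.

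In the B cell and mast cell lists, where no gene passed, the largest means were those of Ms4a1 at -0.36 and Cd79a at -0.32, and of Mcpt8 at -0.43 and Cpa3 at 0.17. Without mouse 3, 2 of 7 B cell genes and 0 of 5 mast cell genes passed, where 26.1% of all tested probes did.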
